A study of Mus musculus with 2 samples.

Results

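The globin genes analyzed here are Hba-x and Hba-a1 of the alpha-globin cluster on chromosome 11 and Hbb-b1, Hbb-b2, Hbb-bh1 and Hbb-y of the beta-globin cluster on chromosome 7. They were chosen by name, as the rows of the deposited DNase I table whose symbol equals a member, which gave 6 of 22605 genes and 9 of 55432 transcripts. DHS-seq, in which nuclei are lightly digested with DNase I and the small fragments from open chromatin are sequenced, was performed once on untreated M1 cells (M1) and once on M1 cells under interleukin-6 (M1+IL-6), so that each condition has 1 library. M1 is a murine myeloid progenitor leukemia line, used here at passages 15 to 18 for both libraries, that differentiates toward macrophages under IL-6, and the labels give 4 to 5 days of IL-6. The study compared the libraries to find sites that open or close during this differentiation. With 1 library per condition no difference has a replicate check and no p-value is given. All intervals below are exact 95% intervals that cover counting error only, and they compare these 2 libraries, not the conditions. Both libraries come from this one leukemia line, so the values describe M1 cells and no other myeloid cell.

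Hemoglobin is built from a pair of alpha-type and a pair of beta-type globin chains, each of which holds a heme group. The genes of each type sit side by side in a cluster and are switched on in turn: Hba-x (zeta-globin), Hbb-y and Hbb-bh1 in the primitive red cells of the embryo, and Hba-a1, Hbb-b1 and Hbb-b2 in definitive red cells of the fetal liver and adult bone marrow. Erythroid factors such as Gata1, Klf1 and Tal1 open the promoters and the distant enhancers of both clusters in red cell precursors, while in other blood lineages the genes are silent. A myeloid line therefore serves as a setting in which their chromatin is usually closed.

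The promoters are shown first because they are the part of a globin gene that DNase I cuts in red cells, and because they lie wholly or partly in the windows counted here. Each line gives the 120 bases just before the RefSeq transcription start, 5′ to 3′ on the gene's own strand, placed on NCBIM37 by exact match. Capitals mark CCAAT (bound by NF-Y), CACCC (bound by Klf1), TATAA (the TATA box) and GATA (bound by GATA factors), each on either strand, and adjoining or overlapping matches run together. The set of RefSeq promoters used here held an entry for 5 of the 6 genes and none for Hbb-bh1. Hbb-b1 and Hbb-b2 were matched through the symbols Hbb-bs and Hbb-bt that RefSeq uses for their sequences.
Hba-x, chr11:32176480-32176599, plus strand: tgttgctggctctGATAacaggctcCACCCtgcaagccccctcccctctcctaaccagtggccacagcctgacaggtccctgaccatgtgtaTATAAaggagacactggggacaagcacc
Hba-a1, chr11:32183552-32183671, plus strand: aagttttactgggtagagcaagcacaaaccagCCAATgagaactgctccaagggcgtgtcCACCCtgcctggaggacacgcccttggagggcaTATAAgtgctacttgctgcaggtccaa
Hbb-b1, chr7:110976443-110976562, minus strand: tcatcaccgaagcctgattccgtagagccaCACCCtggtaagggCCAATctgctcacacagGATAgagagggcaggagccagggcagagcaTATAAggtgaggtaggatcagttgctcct
Hbb-b2, chr7:110962438-110962557, minus strand: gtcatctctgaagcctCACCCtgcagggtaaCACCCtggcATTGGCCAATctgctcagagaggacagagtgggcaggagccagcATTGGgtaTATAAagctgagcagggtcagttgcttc
Hbb-y, chr7:111001722-111001841, minus strand: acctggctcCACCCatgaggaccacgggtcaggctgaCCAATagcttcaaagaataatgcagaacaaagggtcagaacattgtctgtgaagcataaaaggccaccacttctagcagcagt

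CACCC was found in 5 of these 5 promoters and in 31.7% of all 32844 RefSeq promoter windows of this length. CCAAT was found in 4 of 5 against 21.3%, and Hba-x was the exception. TATAA was found in 4 of 5 against 11.8%, and Hbb-y was the exception. GATA was found in 2 of 5, Hba-x and Hbb-b1, against 29.5%. A match is only a description of the letters, and a missing match says only that these letters are not in this window. The Hba-a1 sequence occurs 2 times on chromosome 11, because its neighbor Hba-a2 has the same promoter. For Hbb-y, 79 of the 120 bases lie inside counted windows, and for the other 4 genes all 120 do.

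The deposited table gives, for each transcript, the mean number of reads in those 700-bp windows of the chromosome that its coding sequence touches from start to stop. Multiplying by the number of windows gives back whole reads. In the M1+IL-6 library each read carries a scaling factor of 1.03816, so levels of that library are given below as scaled reads per window. The spans run from start to stop codon through the exons and introns of the genes, each of which has 3 exons. On NCBIM37 Hba-x lies at chr11:32176400-32178116 and Hba-a1 at chr11:32183511-32184465, both on the plus strand. On the minus strand of chromosome 7, from low to high positions, lie Hbb-b2 at chr7:110961038-110962510, Hbb-b1 at chr7:110975048-110976610, Hbb-bh1 at chr7:110990150-110991678 and Hbb-y at chr7:111000259-111001754. The 6 genes cover 17 windows, 5 in the alpha cluster and 12 in the beta cluster. The whole M1 library held 8866528 reads over non-overlapping gene spans of chromosomes 1 to 19 and X, and the M1+IL-6 library 8346123.

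In untreated M1 cells DNase I reads were sparse on the globin genes, and only the embryonic alpha-type gene Hba-x reached the level of an average gene. Hba-x, which encodes the zeta chain, had 24 reads in 3 windows, or 8.0 per window (95% interval 5.13 to 11.9), at the 51.5 percentile of all genes. Hba-a1, the adult alpha chain, had 4 reads in 2 windows, or 2.0 per window (0.545 to 5.12), at the 11.9 percentile. The median gene had 7.75 reads per window, with quartiles of 4.0 and 14.1, so Hba-a1 lay under the lower quartile. Among the beta-type genes the embryonic Hbb-bh1 had the most, with 13 reads in 3 windows, or 4.33 per window (2.31 to 7.41), at the 27.0 percentile. Hbb-b1, one of the adult beta chains, had 9 reads in 3 windows, or 3.0 per window (1.37 to 5.69). Hbb-b2, the other adult beta chain, had 8 reads in 3 windows, or 2.67 per window (1.15 to 5.25). The embryonic Hbb-y also had 8 reads in 3 windows and the same 2.67 per window. These last 3 genes lay at the 16.0 to 18.0 percentile.

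In M1+IL-6 cells the order was led again by Hba-x, while the adult beta genes came last. Hba-x had 25 reads, or 8.65 scaled reads per window (5.6 to 12.8), at the 53.7 percentile. Hbb-y had 17 reads, or 5.88 scaled reads per window (3.43 to 9.42), and stood at the 33.0 percentile. Hbb-bh1 had 16 reads, or 5.54 scaled reads per window (3.16 to 8.99), at the 30.3 percentile. The adult genes had fewer reads than any embryonic gene in this library. Hba-a1 had 6 reads, or 3.11 scaled reads per window (1.14 to 6.78). Hbb-b1 had 7 reads, or 2.42 scaled reads per window (0.974 to 4.99), and Hbb-b2 had 6 reads, or 2.08 (0.762 to 4.52). The median gene of this library had 8.14 scaled reads per window, with quartiles of 4.8 and 12.5.

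Globin genes are short, and short genes have fewer reads per window in this table. The 4316 genes that cover 2 or 3 windows had medians of 5.0 reads per window in M1 cells and 6.75 scaled reads per window in M1+IL-6 cells. The percentiles that follow are against a wider set, the genes of 1 to 3 windows. Against these Hba-x lay at the 64.5 percentile in M1 cells and at the 60.7 percentile in M1+IL-6 cells. The other 5 globin genes lay between the 23.9 percentile (Hba-a1) and the 44.0 percentile (Hbb-bh1) in M1 cells. In M1+IL-6 cells they lay between the 18.2 percentile (Hbb-b2) and the 45.6 percentile (Hbb-y). So 1 of the 6 genes was above the middle of the short genes and 5 were below it, in both libraries.

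Neighbors in either order could not be told apart by their counts. In M1 cells the order was Hba-x, Hbb-bh1, Hbb-b1, Hbb-b2 level with Hbb-y, and Hba-a1. The largest step, from Hba-x to Hbb-bh1, was a ratio of 1.85 per window with an interval of 0.903 to 3.95. In M1+IL-6 cells the order was Hba-x, Hbb-y, Hbb-bh1, Hba-a1, Hbb-b1 and Hbb-b2. The largest step there, from Hbb-bh1 to Hba-a1, was 1.78 with an interval of 0.661 to 5.55. The ends of the orders did differ beyond counting error, with Hba-x 4.0 times (1.37 to 15.9) above Hba-a1 in M1 cells and 4.17 times (1.67 to 12.4) above Hbb-b2 in M1+IL-6 cells. These pairs were picked as highest and lowest, so their ratios are descriptions.

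**Figure D1:**
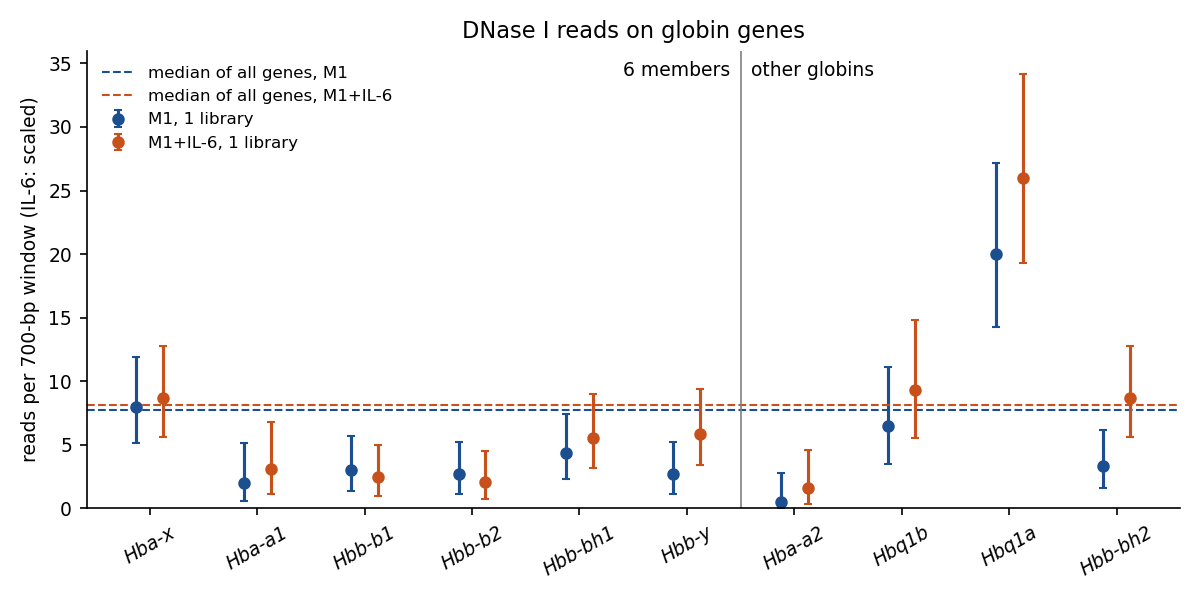
DNase I reads per 700-bp window (y axis, scaled reads for M1+IL-6) on the 6 globin genes and, right of the vertical line, the 4 other globin genes of the clusters (x axis). Points are single libraries, bars are exact 95% Poisson intervals and dashed lines are the medians of all genes, 7.75 and 8.14. Of the 6 genes Hba-x alone reaches these lines, at 8.0 and 8.65, while Hbq1a stands at 20 and 26.

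No single window of the 6 globin genes passed the count above which the study detected DNase I hypersensitive sites, 21 reads. The study does not state the unit of that count, which is applied here to 700-bp windows of each library. The mean and SD of a gene with 2 or 3 windows fix the reads of its single windows, though in most cases not which window held them. Hba-x had windows of 6, 9 and 10 reads in M1+IL-6 cells, while in M1 cells its windows held either 2, 9 and 13 or 3, 7 and 14 reads. Hba-a1 had windows of 1 and 3 reads in M1 cells and of 2 and 4 reads in M1+IL-6 cells. These windows include its promoter, shown above.

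Hbb-b1 had windows of 2, 3 and 4 reads in M1 cells and of 1, 2 and 4 reads in M1+IL-6 cells. A shorter Hbb-b1 transcript in the table covers only chr7:110975901-110976600, the window that holds the Hbb-b1 promoter printed above. It had 4 reads in M1 cells and 1 read in M1+IL-6 cells. Hbb-b2 had all its reads in 1 of its 3 windows in each library, with 8 reads in M1 cells and 6 in M1+IL-6 cells. Hbb-b2 thus had 0 reads in 2 windows of each library, and a count of 0 allows up to 3 reads by the one-sided limit used for zeros. Of the embryonic genes Hbb-bh1 had windows of 2, 4 and 7 reads in M1 cells and of 4, 4 and 8 reads in M1+IL-6 cells. Hbb-y had windows of 2, 3 and 3 reads in M1 cells and of 4, 6 and 7 reads in M1+IL-6 cells. The strongest globin window was thus in Hba-x in both libraries.

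So 0 of 6 genes had a window of more than 21 reads in M1 cells, against 18.1% of the genes of 2 or 3 windows. In M1+IL-6 cells it was 0 of 6 against 17.7%. The count of 0 for M1+IL-6 cells depended on the scaling. It became 4 of 6 with the median of ratios, against 68.5% of the genes of 2 or 3 windows, and 3 of 6 with the trimmed mean, against 63.3%. It stayed at 0 with no scaling and with the total over coding spans.

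**Figure D2:**
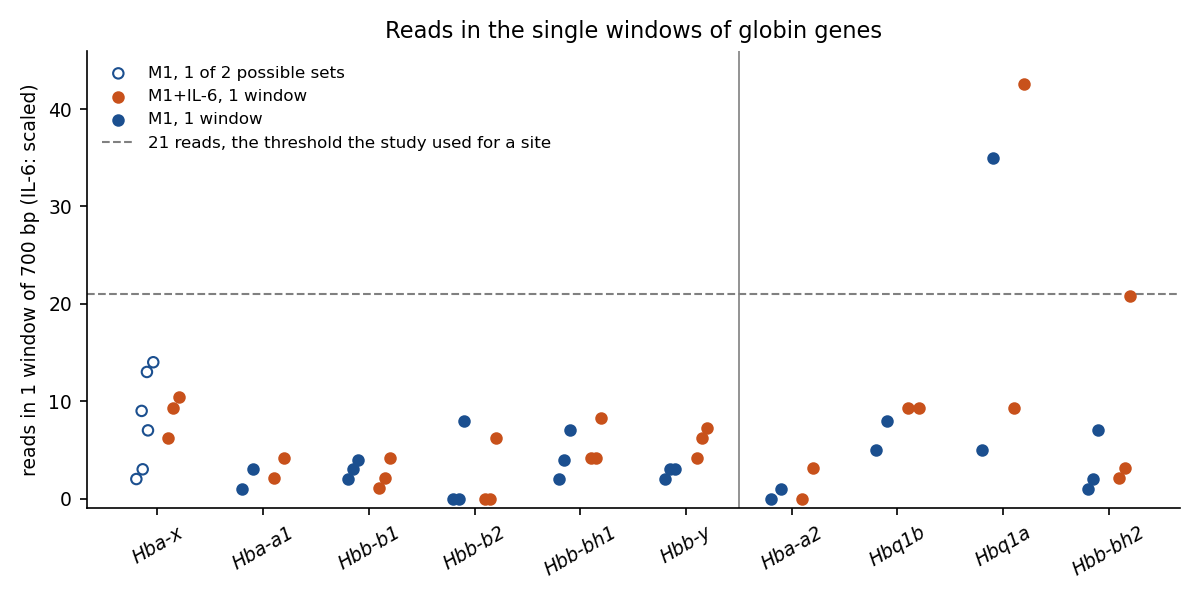
Reads in each single 700-bp window (y axis, scaled reads for M1+IL-6) of the 6 globin genes and, right of the vertical line, 4 other globin genes (x axis). Filled points are windows solved from the mean and SD, open points are the 2 sets of windows possible for Hba-x in M1, and the dashed line marks 21 reads. No window of the 6 genes lies above the line with the scaling of the table, while Hbq1a has windows of 35 and, scaled, 42.6 reads.

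How the globin genes differed between the libraries depends on the scaling. With the scaling of the table, no scaling or the total over coding spans, 4 of 6 genes had a ratio of M1+IL-6 to M1 above 1. The median log2 ratio with the scaling of the table was also above 0, at 0.05 for all genes and 0.16 for the genes of 2 or 3 windows. With scaling by the strongest windows of both libraries (median of ratios, or trimmed mean of log ratios, over the 544 single windows above 21 reads in both), all 6 did. Those scalings set the strongest sites equal and move every log2 ratio up, by 1.83 and 1.68, so that the median of all genes goes from 0.05 to 1.86 and 1.71. The ratios below use the scaling of the table, and ratios between globin genes do not depend on it.

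Hbb-y had the largest ratio of the 6, 2.21, with an interval of 0.902 to 5.91 that includes 1. Its log2 ratio of 1.09 lay at the 95.8 percentile of all genes, but 14.4% of the genes of 2 or 3 windows were at least 2-fold higher. Every Hbb-y window of M1+IL-6 cells held more reads than every Hbb-y window of M1 cells. Hba-a1 had a ratio of 1.56 (0.369 to 7.5) and Hbb-bh1 of 1.28 (0.576 to 2.89). Hba-x was nearly level, at 1.08 (0.593 to 1.98). Hbb-b1 and Hbb-b2 were the 2 genes with ratios under 1, at 0.807 (0.256 to 2.44) and 0.779 (0.223 to 2.56), and both ratios were above 1 under either scaling by strong windows. All 6 intervals include 1 with the scaling of the table, so a difference was not detectable at this depth for any of the genes. With the median of ratios the intervals of Hba-x, Hba-a1, Hbb-bh1 and Hbb-y lay above 1, and those of Hbb-b1 and Hbb-b2 included it.

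At least 2-fold lower in M1+IL-6 cells were 0 of 6 genes, against 12.0% of all genes and 13.4% of the genes of 2 or 3 windows. At least 2-fold higher was 1 of 6, Hbb-y, against 4.82% of all genes and 14.4% of the genes of 2 or 3 windows. A share of 1 in 6 is near that background. Under either scaling by strong windows 6 of 6 were at least 2-fold higher, as were most genes of the table. These were 81.8% of all genes and 77.7% of the genes of 2 or 3 windows with the median of ratios, and 78.7% and 75.8% with the trimmed mean.

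Cluster sums and ratios cover only the 6 members. They leave out Hba-a2 (1 and 3 reads), Hbq1b (13 and 18), Hbq1a (40 and 50) and Hbb-bh2 (10 and 25). Summed over the windows of Hba-x and Hba-a1, the alpha cluster had 28 reads in M1 cells and 31 in M1+IL-6 cells. This came to 5.6 (3.72 to 8.09) and, scaled, 6.44 (4.37 to 9.14) per window, a ratio of 1.15 (0.667 to 1.99). The beta cluster had 38 and 46 reads, or 3.17 (2.24 to 4.35) and, scaled, 3.98 (2.91 to 5.31) per window, a ratio of 1.26 (0.8 to 1.98). Over all 6 genes the sums were 66 and 77 reads, with a ratio of 1.21 (0.86 to 1.71). With the median of ratios the alpha ratio was 4.08 (2.37 to 7.05) and the beta ratio 4.46 (2.84 to 7.04).

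**Figure D3:**
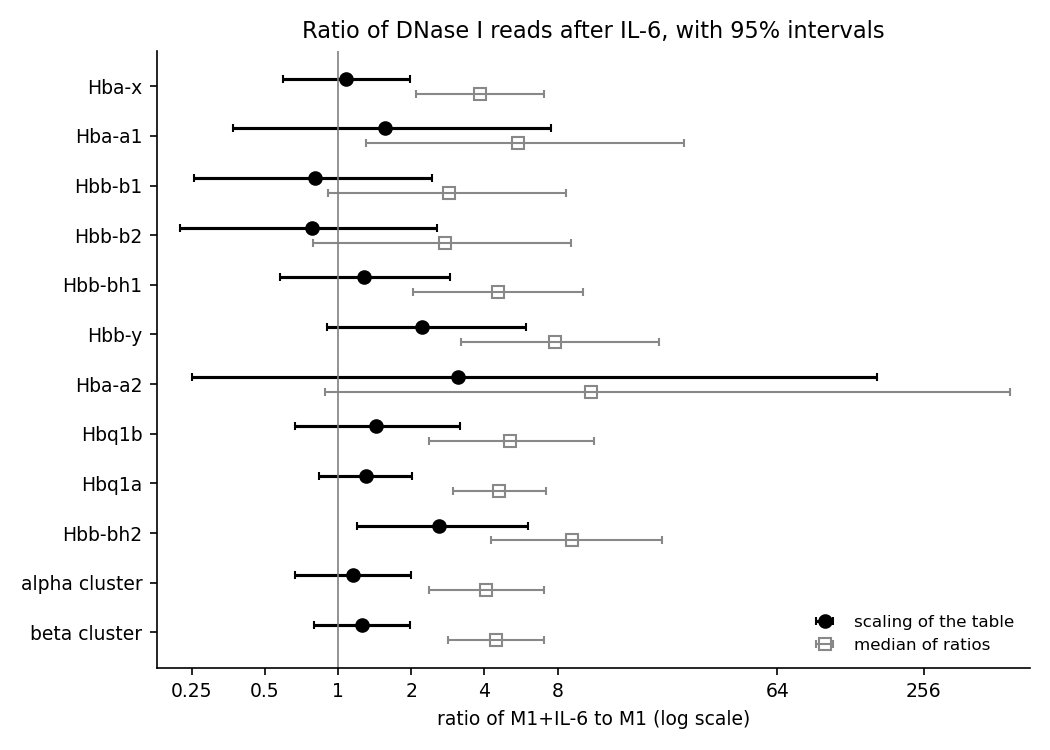
Ratio of M1+IL-6 to M1 reads (x axis, log scale) for 10 globin genes and for the alpha and beta clusters summed over the 6 genes (y axis). Bars are exact 95% intervals for counting error, filled circles use the scaling of the table and open squares the median of ratios. With the scaling of the table every bar but that of Hbb-bh2 includes 1, while the median of ratios moves all points to higher values, 4.08 for the alpha and 4.46 for the beta cluster.

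The 2 alpha members had more reads per window than the 4 beta members in M1 cells, with a ratio of 1.77 (1.05 to 2.96). With the shortest listed transcript of each gene it was 1.7, with an interval of 0.988 to 2.9 that includes 1. In M1+IL-6 cells the ratio was 1.62, with an interval of 0.991 to 2.61 that includes 1. Hba-x held 24 of the 28 alpha reads in M1 cells, and with the adult genes alone, Hba-a1 against Hbb-b1 and Hbb-b2, the M1 ratio was 0.706 (0.173 to 2.16). These members of the clusters did not differ in their IL-6 ratios beyond counting error. The alpha ratio divided by the beta ratio was 0.915 with an interval of 0.445 to 1.88, and 1.93 (0.367 to 11.4) with the adult genes alone. GC content also differed between the clusters. The windows of Hba-a1 had 54.9% GC and those of Hba-x 51.5%, while the 4 beta genes had 40.9% to 43.5% and the median gene 45.6%. The part of GC content in these levels was not tested.

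The beta cluster holds embryonic and adult genes side by side. Hbb-bh1 and Hbb-y together had 21 reads in M1 cells and 33 in M1+IL-6 cells, a ratio of 1.63 (0.916 to 2.97) with the scaling of the table. Hbb-b1 and Hbb-b2 together had 17 and 13 reads, a ratio of 0.794 (0.355 to 1.74), which became 2.81 (1.26 to 6.15) with the median of ratios. Within one library the embryonic beta genes had 1.24 times (0.621 to 2.49) the reads per window of the adult ones in M1 cells and 2.54 times (1.3 to 5.26) in M1+IL-6 cells. The difference between these ratios, which no scaling affects, did not exceed counting error. The ratio of ratios was 2.04 with an interval of 0.756 to 5.62.

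The adult genes are near-identical copies, which limits how their reads can be placed. Hbb-b1 and Hbb-b2 agree at 443 of 444 coding bases, and Hba-a1 and Hba-a2 at 428 of 429. By contrast Hbb-bh1 and Hbb-y share 76.4% of aligned coding bases, and Hba-x and Hba-a1 63.8%. A read that fits equally well in both copies can be dropped, placed at random or counted in each, and the sources used here do not state how such reads were treated or how long the reads were. Of all 32-bp sequences in the windows of Hba-a1, 10.8% occur once in NCBIM37. The value was 48.9% for Hbb-b1 and 46.6% for Hbb-b2, but 96.6% for Hba-x and 100% for both Hbb-bh1 and Hbb-y. In the middle windows of Hbb-b1 and Hbb-b2 only 5.43% and 4.57% were unique, and in their promoter windows 41.3% and 42.6%.

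Counted per 100 unique 32-bp positions, the order of the genes was another one. In M1 cells Hba-a1 had 2.65 reads per 100 unique positions, Hba-x 1.18, Hbb-b1 0.876, Hbb-b2 0.817, Hbb-bh1 0.619 and Hbb-y 0.381. In M1+IL-6 cells the scaled values were 4.12, 1.28, 0.708, 0.637, 0.791 and 0.84. Embryonic over adult beta was 0.59 (0.296 to 1.19) in M1 cells and 1.21 (0.621 to 2.51) in M1+IL-6 cells on this measure, so both intervals include 1. The Hba-a1 value rests on 151 unique positions and treats all its reads as unique. The part of repeated sequence in the low counts of the adult genes was not tested.

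**Figure D4:**
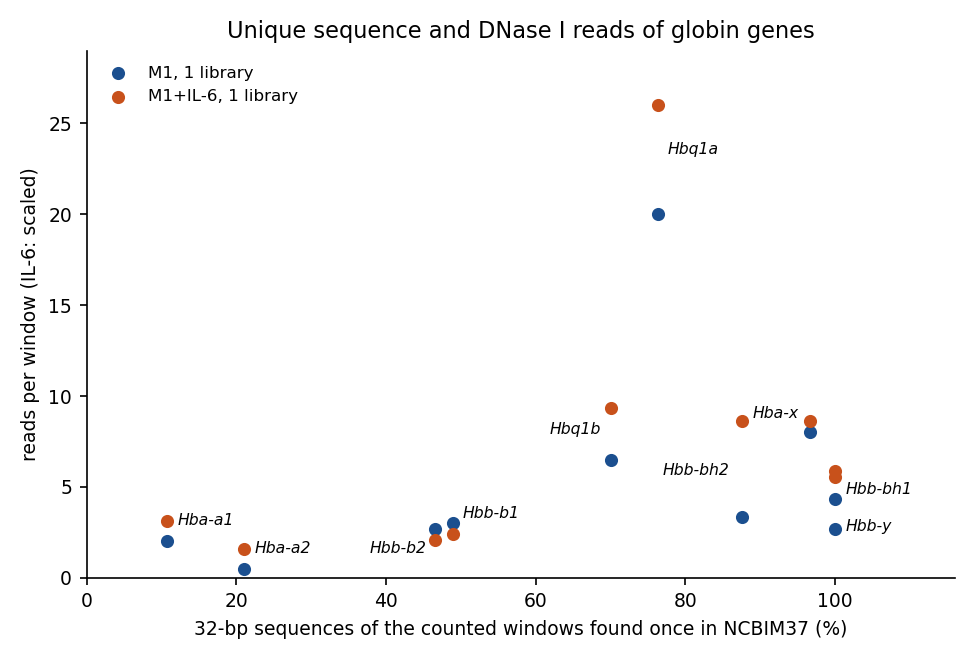
Reads per window (y axis, scaled reads for M1+IL-6) against the share of 32-bp sequences of the counted windows that occur once in NCBIM37 (x axis, percent) for 10 globin genes in the M1 and M1+IL-6 libraries. Each gene has 1 point per library. The genes with under 50% unique sequence, Hba-a1, Hba-a2, Hbb-b1 and Hbb-b2, all have at most 3.11 reads per window, while Hbb-y and Hbb-bh1 at 100% have 2.67 to 5.88.

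The other globin genes of the same clusters spanned a wider range. Hba-a2, the second adult alpha gene, had 1 read in M1 cells and 3 in M1+IL-6 cells, with 21% unique sequence. Hbq1b and Hbq1a, the theta-globin genes, lie beyond Hba-a1, with Hbq1b before and Hbq1a after Hba-a2. Hbq1b had 13 and 18 reads, a ratio of 1.44 (0.666 to 3.19). Hbq1a had 40 and 50 reads, or 20 (14.3 to 27.2) and, scaled, 26 (19.3 to 34.2) per window, at the 84.5 and 96.9 percentiles of all genes. With the scaling of the table it was the one globin gene of either cluster with a window over 21 reads in both libraries, 35 and, scaled, 42.6. Its windows hold 68 of the 120 bases before its own start, and 76.3% of their sequence is unique. Hbb-bh2, which lies next to Hbb-bh1, had windows of 1, 2 and 7 reads in M1 cells and of 2, 3 and 20 in M1+IL-6 cells. Its ratio of 2.6 (1.2 to 6.06) lay above 1 with the scaling of the table. Myoglobin, neuroglobin and cytoglobin are globins of muscle and other tissues whose genes lie elsewhere. Mb had 17 and, scaled, 20.2 reads per window, Cygb 17.5 and 18.3, and Ngb 15.0 and 21.4. Of these 7 other globins 4 were above the median gene in M1 cells, against 1 of the 6 genes chosen here. Their median log2 ratio was 0.51, beside 0.05 for all genes and 0.16 for the genes of 2 or 3 windows. At least 2-fold lower were 0 of 7, against 12.0% of all genes. At least 2-fold higher were 2 of 7, Hbb-bh2 and, on 1 and 3 reads, Hba-a2. Both cover 2 or 3 windows, and 14.4% of such genes were at least 2-fold higher, against 4.82% of all genes.

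The surroundings of the clusters differed in level. Within 100 kb of the alpha cluster lay 6 genes that are not globins, Il9r, Snrnp25, Rhbdf1, Mpg, Nprl3 and Sh3pxd2b. Their medians were 11.6 reads per window in M1 cells (range 7.43 to 20) and, scaled, 12.2 in M1+IL-6 cells (9.49 to 15.6). In M1 cells 3 of them, Snrnp25, Mpg and Nprl3, had a window over 21 reads for certain. In M1+IL-6 cells 0 did with the scaling of the table, and the highest certain value was 19.5 scaled reads, in Snrnp25. That count depends on the scaling, since a treated read is worth 1.04 here and 3.68 with the median of ratios. No share over genes of such length is given here. In M1 cells Hba-x, at 8.0, lay near the low end of this range and Hba-a1, at 2.0, under it, and in M1+IL-6 cells both lay under it. The 13 genes within 100 kb of the beta cluster are all olfactory receptor genes, which are silent outside olfactory neurons. Their medians were 4.67 (0.0 to 8.5) and, scaled, 7.27 (0.692 to 11.4). With the scaling of the table none had a window over 21 reads, against 18.1% and 17.7% of the genes of 2 or 3 windows. The 4 beta genes, at 2.67 to 4.33 in M1 cells and 2.08 to 5.88 in M1+IL-6 cells, lay inside that range.

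On the side of Hbb-b2, the nearest olfactory genes Olfr67, Olfr68, Olfr69 and Olfr630 had 3.33, 2.0, 2.5 and 2.5 reads per window in M1 cells and, scaled, 7.61, 3.63, 3.11 and 8.82 in M1+IL-6 cells. On the side of Hbb-y, Olfr66, Olfr64, Olfr65 and Olfr631 had 6.0, 6.5, 4.67 and 5.0 in M1 cells and, scaled, 7.27, 6.75, 6.58 and 7.27 in M1+IL-6 cells. The genes on the side of Hbb-y had more reads per window than all 4 beta genes in both libraries, and so did Olfr67 and Olfr630 in M1+IL-6 cells. Of all 13 olfactory genes 11 had a ratio above 1 with the scaling of the table, with a median log2 ratio of 0.46, and the intervals of 2, Olfr630 and Olfr67, lay above 1. Olfr628, with 0 and 6 reads, has no ratio. The median log2 ratio of all genes of 2 or 3 windows, the length of these olfactory genes, was 0.16. For the 6 genes around the alpha cluster it was -0.02, but these cover 5 to 109 windows and are not a like group. The locus control region of the beta cluster lies outside the coding spans of the table and is not analyzed here.

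**Figure D5:**
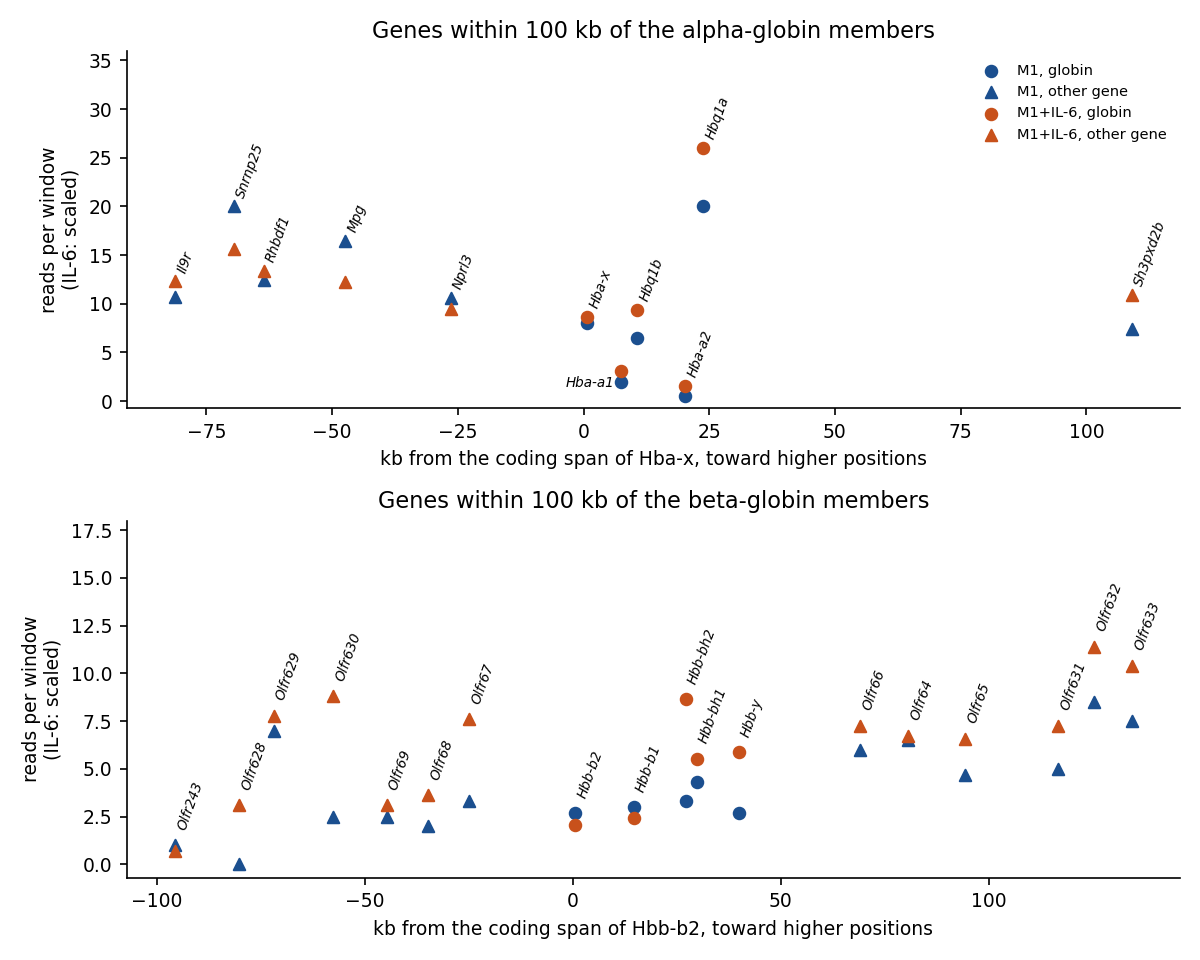
Reads per window (y axis, scaled reads for M1+IL-6) of all genes within 100 kb of the alpha-globin members (upper panel) and the beta-globin members (lower panel) against the distance of the gene's middle from the start of the coding span of Hba-x or Hbb-b2 (x axis, kb). Circles are globin genes and triangles are other genes, 1 point per library. The beta genes lie among olfactory receptor genes of 0.0 to 11.4 reads per window, and the alpha genes among genes of 7.43 to 20.

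Several of the enhancers that drive alpha-globin in red cells lie in introns of Nprl3. Its coding span ends 9.12 kb from that of Hba-x and is covered by the table. Transcripts of different length split Nprl3 into 5 stretches. The 18 windows at chr11:32155201-32167800, nearest to the globin genes and at the 5′ end of Nprl3, had 248 reads in M1 cells and 138 in M1+IL-6 cells, a ratio of 0.578 (0.466 to 0.714). This ratio turns above 1 under either scaling by strong windows. Next to it, the 2 windows at chr11:32153801-32155200 had 12 and 15 reads and the 6 windows at chr11:32149601-32153800 had 55 and 70, a ratio of 1.32 (0.915 to 1.92). The 12 windows at chr11:32141201-32149600 had 72 and 99 reads, a ratio of 1.43 (1.04 to 1.96), and the 12 at the 3′ end, chr11:32132801-32141200, had 143 and 135. The stretches are too long to place reads on a single enhancer.

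Hba-x and Hba-a1 thus sat beside a gene whose 5′ stretch held 13.8 reads per window in M1 cells and, scaled, 7.96 in M1+IL-6 cells. Over the same libraries Hba-x went from 8.0 to 8.65 and Hba-a1 from 2.0 to 3.11, with the scaling of the table.

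Genes whose products act with globin mostly lay above the globin genes. Heme synthesis, which supplies the group that each globin chain holds, was represented by 9 of 9 genes with medians of 15.7 reads per window in M1 cells and, scaled, 14.8 in M1+IL-6 cells. Of these 9 genes 7 were above the median gene in each library. Fech, which inserts the iron, had 9.38 and 8.33 per window, Alad 44.5 and 47.8, and the housekeeping synthase Alas1 15.7 and 15.3. The list's median log2 ratio was -0.17, with 6 of 9 genes at a ratio under 1 and 3 above it. At least 2-fold lower were 2 of 9, neither of them named here, against 12.0% of all genes, and 0 were higher. Alas2, the synthase particular to red cells, had 2.0 and 2.46 reads per window, like Hba-a1. The list of the alpha-globin chaperone and of heme and iron handling had values for 8 of 11 symbols, and the chaperone gene itself (Ahsp or Eraf) is not analyzed here. Its medians were 20.2 and 14.5, its median log2 ratio -0.44, and 2 of 8 genes were at least 2-fold lower, against 12.0% of all genes. These were the ferritin genes Fth1, with 134.0 and 36.1 per window, and Ftl1, with 126.0 and 29.8. Slc25a37, a carrier of iron into mitochondria, had 13.8 and 13.2, and the heme oxygenase gene Hmox1 had 26.7 and 15.8.

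Genes that regulate globin transcription had more reads per window than most globin genes. All 18 listed were in the table, with medians of 12.7 and, scaled, 10.1, and 14 of 18 were above the median gene in each library. Their median log2 ratio was -0.36 with 3 of 18 at least 2-fold lower, near the 12.0% of all genes, and 0 higher. The 3 were Klf1, with 51.6 and 20.6 per window, Ldb1, with 30.9 and 12.0, and Tal1, with 25.1 and 11. Gata1, the central erythroid factor, had 4.83 and 3.11 per window. Of the regulators with most reads, Zfpm1, a partner of Gata factors, had 32 and 24.7 per window, Ikzf1 16.9 and 9.78, Bcl11a, a repressor of embryonic and fetal globins, 9.29 and 8.69, and Sox6, which acts with it, 3.04 and 4.55. Myb, the gene under study, had 14.1 and 7.33.

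Red cell membrane and cytoskeleton genes had levels nearer to average. Of 15 listed 13 were in the table, with medians of 8.62 and, scaled, 10.2, a median log2 ratio of 0.21 and 0 of 13 past 2-fold in either direction. The ankyrin gene Ank1 had 8.62 and 11.7 per window, the spectrin gene Spnb1 14.7 and 17.1, Epb4.1 6.03 and 6.42, and Tmod1 8.29 and 10.2. With the median of ratios, which adds 1.83, the median log2 ratios of all these lists become positive, and none of the genes named here as at least 2-fold lower remains so.

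The labelled cell type was checked with marker lists. Of the myeloid progenitor markers 10 of 11 were in the table, with medians of 14.6 and, scaled, 12.1, a median log2 ratio of -0.69 and 3 of 10 at least 2-fold lower, against 12.0% of all genes. These calls and those below hold with the scaling of the table, and 1.83 is added to each log2 ratio with the median of ratios. Macrophage markers (10 of 10) had 8.79 and 8.38, -0.38 and 3 of 10 lower. Erythroid markers (7 of 8) had 6.39 and 8.98, 0.29 and 1 of 7 lower, Klf1. All but Epor of these also stand in the lists above. Lymphoid markers (6 of 6) had 7.83 and 10.3, 0.43 and 1 of 6 lower, Cd3d. None of these genes was at 0 reads in both libraries, and none was at least 2-fold higher. Erythroid markers in M1 cells ranged from 2.0 per window (Alas2) to 51.6 (Klf1). The part of other cell types in the globin counts was not tested.

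Counts as low as these are shared by many genes. Of 2780 genes with 2 windows 11 had the same pair of counts as Hba-a1, 4 and 6 reads, the first by name being 4933411G06Rik, Gm17430 and Gm2174. Of 1534 genes with 3 windows 5 had the 9 and 7 reads of Hbb-b1, the first by name being Cxcl3, Olfr1151 and Olfr120. The likeness is over 2 libraries and says nothing of shared function.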

How the data were processed

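1 library each of M1 and M1+IL-6 cells was profiled by DHS-seq. Nuclei were digested with DNase I and small fragments were purified. After trimming, the authors used BWA for alignment to NCBIM37 (mm9) and Seqmonk for the read densities. The methods name single-read sequencing and a figure legend paired-end sequencing. The deposited values are signal: the mean and SD of reads over the 700-bp windows touched by the coding span of each transcript. The last column held no values. Samples were grouped by their label of IL-6 treatment, and columns were matched to samples by title and description.

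Reads were recovered as mean times windows, divided by 1.0 in M1 and 1.03816 in M1+IL-6. All products lay within 0.05 of a whole number. The analysis had been planned for reads, and ratios of the recovered reads were used as planned. The gene's transcript with most windows represented it. Log2 ratios add 0.5 reads to each library. Intervals are Clopper-Pearson for ratios, Poisson for levels and conditional exact for ratios of ratios. Only those of the ratios between the libraries were tested on simulated data. No test across libraries was made. Windows of short genes were solved from mean and SD, and 2 of 4316 could be bounded only. For longer genes a window over 21 reads was counted where mean and SD require one. Uniqueness used 32-bp sequences on both strands of NCBIM37. Gene positions are from GENCODE release M1 and promoters from RefSeq.

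The members and lists were chosen with earlier results of these data known. Named were all members, the other globins of the clusters, genes within 100 kb (the 4 nearest on each side with values), up to 4 genes of a list with most reads, and the 3 genes closest in counts to Hba-a1 and Hbb-b1. Alas2, Gata1, Ldb1, Klf1, Tal1, Myb, Cd3d, Epor, Olfr628 and the theta-globin genes Hbq1b and Hbq1a were named after their values were seen. The values of 1 listed gene are not reported here. Alternatives covered scaling, reads added, fold, transcript, cluster summary and members. Python 3.11.15, numpy 2.4.6, pandas 2.3.3, scipy 1.17.1 and matplotlib 3.10.9 were used.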

Additional observations from a re-analysis of the deposited data

How the results depend on the processing

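Of 77 values under alternative settings for 16 results, 56 stayed within the counting interval of the reported value and 21 moved outside it or, for counts, by more than 1.5 times. No paired analysis was possible because there is only 1 sample on each side, and neither could be left out. The scaling moved the most. With the median of ratios the log2 ratio was 2.01 for the alpha cluster, 2.14 for the beta cluster, 1.92 for Hba-x, 1.47 for Hbb-b1, 1.41 for Hbb-b2, 2.14 for Hbb-bh1 and 2.89 for Hbb-y. With the trimmed mean it was 1.87 for the alpha cluster, 2.00 for the beta cluster, 1.78 for Hba-x, 1.33 for Hbb-b1, 2.00 for Hbb-bh1 and 2.75 for Hbb-y. By their construction these scalings set the strongest windows equal, and Hbb-b1 and Hbb-b2 thereby went from a log2 ratio under 0 to one above 0 in both. With the adult genes alone, alpha over beta was 0.706 in M1 and the ratio of the IL-6 ratios 1.93. By construction this leaves out Hba-x, which has most alpha reads, and the embryonic beta genes Hbb-bh1 and Hbb-y. The alternatives for the number of genes with a window over 21 reads and those per unique position were chosen after seeing the data. Genes with a window over 21 reads in M1+IL-6 numbered 4 with the median of ratios and 3 with the trimmed mean. At more than 10 reads in place of 21 the number was 1 in M1 and 1 in M1+IL-6. Embryonic over adult beta per unique position was 0.59 in M1 and 1.21 in M1+IL-6. The transcript with fewest windows gave alpha over beta in M1 as 1.7 with an interval that includes 1, and for Hbb-b1, then 1 window of 4 and 1 reads, a log2 ratio of -1.55. The number of reads added, this transcript, no scaling and the total over coding spans left all results within their intervals. Depth limits all of this: a globin gene had 4 to 25 reads in a library, and even the ratio of 2.21 of Hbb-y lay within counting error.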
